A study of Arabidopsis thaliana with 18 samples.

Results

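TAS2 (AT2G39681) is a non-coding gene of Arabidopsis thaliana whose transcript is cut under the guidance of miR173 and turned into trans-acting siRNAs (tasiRNAs). The tasiRNA positions described here are all rows of the deposited position table that belong to TAS2, that is 1093 of 6242 rows, of which 640 are on the forward strand (the sense of the transcript) and 453 on the reverse strand. Each row counts the reads that start at one base of the transcript, and its name gives the locus, the leftmost base of the read and a strand flag (0 for forward, 16 for reverse). Reads were found at 956 of the 1093 positions, and 686 positions had fewer than 10 reads over all 18 libraries.

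Small RNA libraries were made from whole 7-day-old seedlings of the accession Col-0, with no transgene or mutation in any group. Some seedlings were left untreated as control, some were harvested after 1 h at 37°C (heat stress, HS), and some were moved back to 22°C for 2 h after that treatment (recovery). For each of these conditions, libraries of total RNA and of RNA bound to immunoprecipitated ARGONAUTE1 (AGO1-IP) were prepared in 3 biological replicates, which gives 6 groups and 18 libraries. Since whole seedlings were used, fewer cells that make a small RNA and less of it per cell cannot be told apart.

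As background, miR173 loaded in AGO1 cuts the TAS2 transcript, SGS3 and RDR6 protect and copy the downstream fragment into double-stranded RNA, and DCL4 dices it from the cut end, so that siRNAs follow each other in a fixed register. One strand of each duplex is then kept by an AGO protein. AGO1 is known to favour small RNAs with a 5′ uridine, whereas AGO2 favours a 5′ adenosine and AGO5 a 5′ cytidine. TAS2 siRNAs are known to guide the cleavage of mRNAs of pentatricopeptide repeat (PPR) proteins, a large family that acts on organellar RNA.

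The TAS2 transcript lies on the minus strand at chr2:16539384-16540417 in the TAIR10.1 assembly as annotated by RefSeq (the submitters' notes name TAIR10), and is 1034 nt long. The miR173 site spans bases 406 to 427 of the transcript (chr2:16539991-16540012) with 2 mismatches to miR173-5p, whose gene product is annotated at chr3:8236161-8236182. The cut falls between bases 417 and 418, so the register starts at base 418 and repeats every 21 nt, and a reverse siRNA of the same duplex starts 2 nt further upstream on the transcript. The sequences shown here are the trigger, its site with the bases after the cut in capitals, and the 21 nt that start at the positions on which the results turn, 5′ to 3′, with the 5′ base in capitals. The table gives no read lengths, so that for a reverse position the 5′ base rests on the 21-nt length taken here.
miR173-5p: uucgcuugcagagagaaaucac
miR173 site in TAS2: gugauuuuucucUCCAAGCGAA
TAS2_418_0: Uccaagcgaaugaugauacuu
TAS2_460_0: Uuugaacuuguguauuuugaa
TAS2_481_0: Acacgauguucaauagauuua
TAS2_502_0: Gaugguaguucaaguauucca
TAS2_521_16: Auaucccauuucuaccaucug
TAS2_564_16: Aguuacaacuuuuuuuacggg
TAS2_585_16: Uucuaccauccgaucaacaag
TAS2_586_0: Uuguugaucggaugguagaaa
TAS2_628_16: Uuugcauauacucgaauaccu
TAS2_649_16: Uaucaagauccaucuuacucu
TAS2_650_16: Uuaucaagauccaucuuacuc

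TAS2_418_0 (chr2:16539980-16540000, minus strand) begins exactly at the first base after the cut, which places the authors' numbering on the annotated transcript. TAS2_649_16 and TAS2_650_16 (chr2:16539748-16539768, plus strand) have leftmost bases 1 nt apart. The 5′ base of TAS2_521_16 (chr2:16539877-16539897, plus strand) is A if its reads are 21 nt long. It is U if they are 22 nt long or 1 nt shorter than 21 nt. That of TAS2_650_16 is U at 21 nt or 1 nt shorter and A at 22 nt, so neither base can be fixed from the table. The 21-mer of TAS2_585_16 occurs at 3 places in the genome, and 10 TAS2 positions in all have a 21-mer that occurs more than once. Positions without a unique 21-mer held 8.15% of TAS2 reads, and none of the 1093 shares its 21-mer with another TAS locus.

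Most of the antisense siRNAs with many reads were complementary to PPR mRNAs in the reference genome. TAS2_521_16 pairs with 1 mismatch to the coding sequences of AT1G63070, AT1G63080 and AT1G63130, and the annotation lists the last 2 genes as cleaved under the guidance of a TAS2 siRNA. TAS2_649_16 pairs with 1 mismatch to AT1G12700 (RPF1, a PPR protein named RNA PROCESSING FACTOR 1), AT1G12300, AT1G12620 and AT1G12775. TAS2_585_16 pairs with no mismatch to an exon of AT1G63630 and with 1 mismatch to the coding sequence of AT1G63230. TAS2_628_16 pairs with 2 mismatches to RPF3 (AT1G62930). The sites, written in the sense of the mRNA with mismatched bases in capitals, show how closely each siRNA is matched.
AT1G63130 site for TAS2_521_16: cagaugguGgaaaugggauau
AT1G12700 site for TAS2_649_16: agaguaagauggaucuugGua
AT1G63230 site for TAS2_585_16: cuuguugaucgUaugguagaa
AT1G62930 site for TAS2_628_16: UgguauucgaguauCugcaaa

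Among the 12 positions with most reads, no forward siRNA had such a site in the coding sequence of a PPR gene with up to 2 mismatches. A match is a description of the sequence, and no mRNA was measured here.

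The count tables held 26411 to 383351 TAS reads per library, of which 6237 to 27317 in total RNA and 34088 to 178579 in AGO1-IP came from TAS2, beside 321918 to 5745126 miRNA reads. AGO1-IP libraries are thus the deeper ones, and total RNA limits the precision. As a partial check of the AGO1-IP label, miR390, which is known to load AGO7, was looked at. Against total RNA, in log2 of the fold between AGO1-IP and total RNA from the edgeR test, miR390a-5p was at −0.50 ± 0.49 (SE) in control (adjusted p = 0.375) and −0.68 ± 0.49 in recovery (adjusted p = 0.235), and lower in HS with −1.54 ± 0.50 (adjusted p = 0.00941). It thus passed the test as lower in HS only and gave no check of the label in control and recovery. miR168a-5p and miR162a-3p, which target the mRNAs of AGO1 and DCL1, were higher in AGO1-IP in all 3 conditions. In control, HS and recovery 65.5%, 67.3% and 63.3% of all miRNA and TAS rows were called in either direction, so these calls say little about the label. AGO1-IP recovery replicate 1 stood apart from the other AGO1-IP libraries, with TAS2 at 32.8% of its TAS reads against 38.9 to 46.6% and with 58.8% reverse TAS2 reads against 63.2 to 80.3%.

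TAS2 siRNAs came almost entirely from the part of the transcript just after the cut. The first 12 cycles of the register, 252 nt, held 98.8% ± 0.29 (SD, n = 9) of TAS2 reads in total RNA and 99.6% ± 0.09 (SD, n = 9) in AGO1-IP, and bases upstream of the cut held 0.264% and 0.0474%. Few positions made up most of these reads. In total RNA 7 positions held the first 50% of the reads and 65 positions held 90%, whereas in AGO1-IP 3 and 17 positions were enough. The profile along the transcript shows that forward peaks stood out in total RNA and reverse peaks in AGO1-IP.

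**Figure D1:**
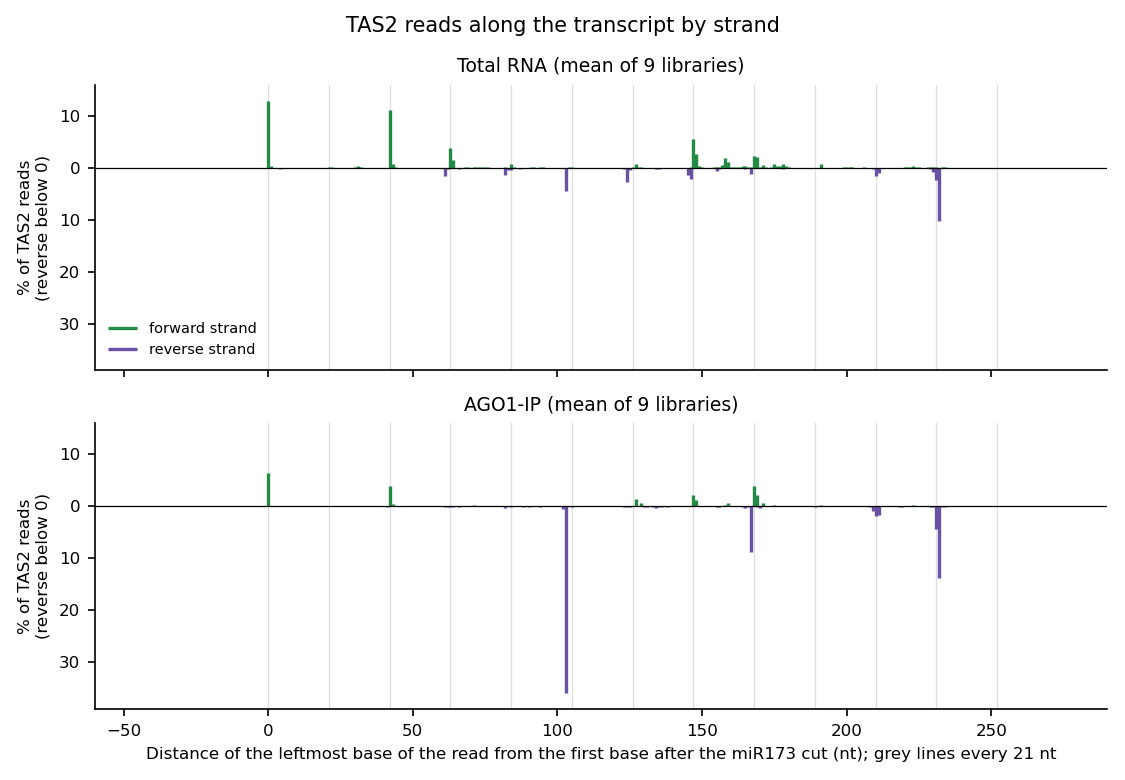
TAS2 reads by position of their leftmost base, in nt from the first base after the miR173 cut, as percent of TAS2 reads (mean of 9 libraries). Forward reads point up and reverse reads down. In total RNA the highest bar is TAS2_418_0 (12.8%), and in AGO1-IP it is the reverse position TAS2_521_16 (36.0%).

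In total RNA, TAS2_418_0 led with 12.8% of TAS2 reads, followed by TAS2_460_0 with 11.1% and TAS2_650_16 with 10.3%. The first siRNA after the cut thus led in the mean of the 9 total RNA libraries, but not in each library. TAS2_460_0 had more reads than TAS2_418_0 in control replicate 3 (4015 against 3802) and recovery replicate 2 (3471 against 2801). The same held in HS replicates 2 (2246 against 1610) and 3 (3249 against 2666). In the other total RNA libraries TAS2_418_0 had more reads than TAS2_460_0. In AGO1-IP the order was TAS2_521_16 with 36.0%, TAS2_650_16 with 13.8%, TAS2_585_16 with 8.75% and TAS2_418_0 with 6.36%. Reverse reads were 40.2% ± 3.74 (SD, n = 9; 34.4 to 46.3%) of TAS2 reads in total RNA and 72.1% ± 7.05 (58.8 to 80.3%) in AGO1-IP, and the 2 ranges do not overlap. The difference of 31.9 percentage points had p = 0.00025 in an exact two-sided permutation test with labels exchanged within each condition, the smallest p that its 8000 arrangements allow (adjusted p = 0.000625 over the 5 measures tested, higher in 9 of 9 library pairs). Without TAS2_521_16 the difference was 19.5 percentage points, with the same p = 0.00025 (exact permutation test).

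TAS2 also took a larger part of all TAS reads in AGO1-IP. Its share was 22.3% ± 1.25 (SD, n = 9; 20.7 to 23.7%) in total RNA and 43.0% ± 4.53 (32.8 to 46.6%) in AGO1-IP. The difference of 20.7 percentage points was found in 9 of 9 pairs (exact permutation test, p = 0.00025, adjusted p = 0.000625). Without TAS2_521_16 it was 11.01 percentage points. Set against miRNA reads instead, TAS2 gave 27050 ± 6378 (SD, n = 9) reads per 1000000 miRNA reads in total RNA and 27547 ± 6898 in AGO1-IP (exact permutation test, p = 0.879). The larger share was thus measured among TAS reads, and relative to the sum of miRNA reads no difference passed the test. Without TAS2_521_16 the rest of TAS2 was lower in AGO1-IP relative to miRNA reads (difference −8440 reads per 1000000, exact permutation test, p = 0.00575). Without AGO1-IP recovery replicate 1 the difference in TAS2 share was 21.99 and that in reverse share 33.6 percentage points.

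**Figure D2:**
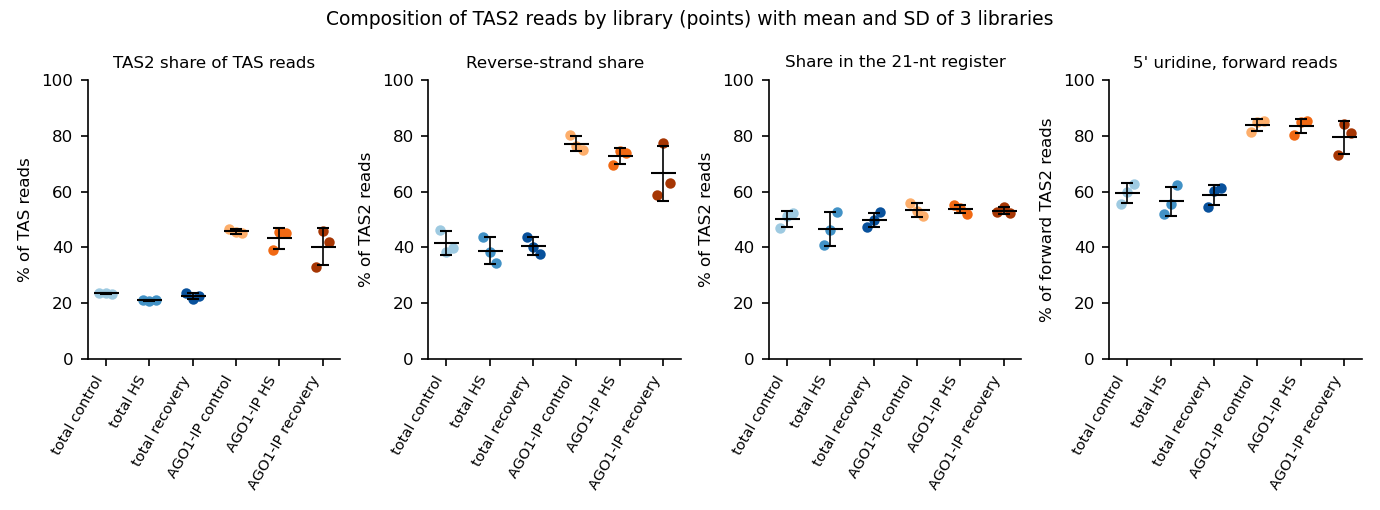
Share of TAS2 in TAS reads, reverse share, share in the 21-nt register and share of forward reads with a 5′ uridine, in percent, for each library (points) with the mean and SD of 3 libraries. The total RNA and AGO1-IP libraries separate in the panels for TAS2 share, reverse share and 5′ uridine, while the register shares lie between 40.8 and 56.1%.

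Register positions held far more reads than the 4.76% expected if reads fell evenly over the 21 offsets. They held 48.9% ± 3.93 (SD, n = 9; 40.8 to 52.8%) in total RNA and 53.5% ± 1.58 (51.3 to 56.1%) in AGO1-IP, a difference of 4.58 percentage points in 6 of 9 pairs (exact permutation test, p = 0.0045, adjusted p = 0.0075). This difference rested on TAS2_521_16. Without that position the register share was lower in AGO1-IP (difference −19.4 percentage points, exact permutation test, p = 0.00025).

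On the forward strand the reads sat on the register itself, with 36.8% of TAS2 reads in total RNA and 16.6% in AGO1-IP, and 10.4% and 7.46% lay 1 to 3 nt downstream. On the reverse strand 12.1% of TAS2 reads in total RNA and 36.9% in AGO1-IP lay on the register, and 22.2% and 32.3% lay 1 to 3 nt from it on the downstream side of the transcript. The shifted reverse reads came mainly from TAS2_585_16 (shift of 1 nt), TAS2_628_16 and TAS2_649_16 (2 nt) and TAS2_650_16 (3 nt). For reverse reads the leftmost base is the 3′ end of the siRNA. Shorter reads with their 5′ end on the register would thus also appear shifted downstream. Length and shift cannot be told apart here, which also limits the reverse part of the register shares.

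**Figure D3:**
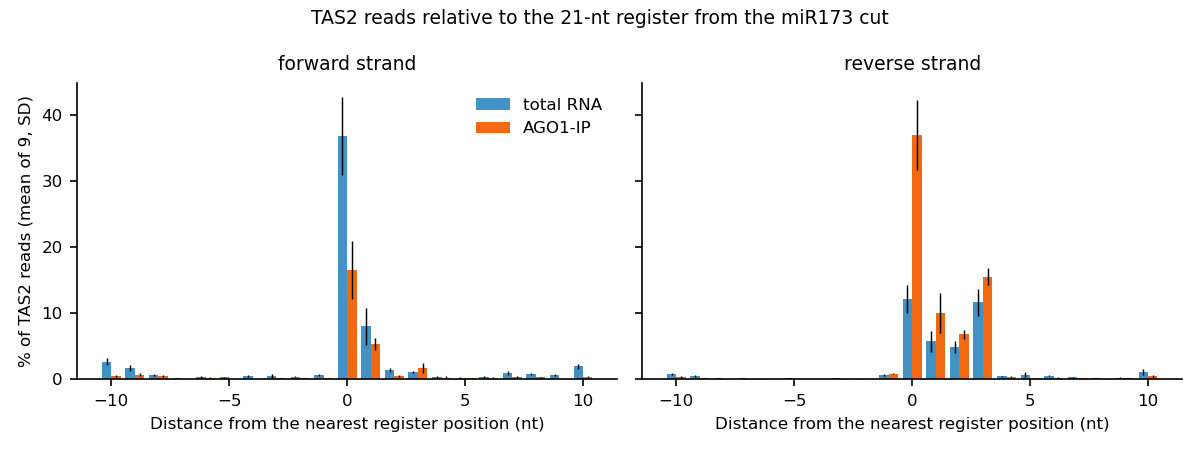
Percent of TAS2 reads by distance in nt from the nearest register position, for each strand (bars: mean of 9 libraries, error bars: SD). Forward reads peak at distance 0, and reverse reads are spread from 0 to 3 nt, with the highest AGO1-IP bar at 0 (36.9%).

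Reads of the 2 strands of a register duplex were unequal, and the strand with more reads differed between cycles. In cycle 1 the reverse strand TAS2_416_16 held a median of 0.184% of the duplex reads in total RNA and 0.0191% in AGO1-IP, so nearly all reads were TAS2_418_0. In cycle 6 it was the opposite, with TAS2_521_16 at a median of 95.7% in total RNA (92.8 to 97.3%) and 99.9% in AGO1-IP. In cycle 8 the reverse strand held 19.8% in total RNA (13.3 to 33.7%) and 0.984% in AGO1-IP (0.272 to 1.15%). In cycle 5 it held 63.9% in total RNA (53.6 to 74.6%) and 98.1% in AGO1-IP (94.0 to 100%). Of the 12 cycles, ranges of the 2 RNA types did not overlap in cycles 5, 6 and 8 and overlapped in all others. In cycle 4, for example, the reverse strand held 18.5 to 56.9% in total RNA and 32.2 to 52.4% in AGO1-IP. In cycle 12 the overlap was narrow, with 56.4 to 90.9% in total RNA and 90.8 to 100% in AGO1-IP. Overlap says little in cycles with few reads. Cycle 10 had 11 forward and 5 reverse reads in total RNA and 0 and 6 in AGO1-IP. Only reads exactly on the register entered these ratios, so TAS2_564_16, shifted by 1 nt in cycle 8, was not counted. No test was run on these ratios.

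The positions with most reads differed in opposite directions between AGO1-IP and total RNA. Levels are given as CPM, reads per 1000000 TAS reads of the library. The log2 fold changes are from the edgeR quasi-likelihood test with TMM factors, which take the typical TAS position as unchanged. Adjusted p-values are Benjamini-Hochberg values over all 852 TAS positions tested. CPM carry no TMM factor. In control the factors were 1.33 to 1.64 for total RNA and 0.606 to 0.743 for AGO1-IP, so the log2 fold changes lie above the ratios of CPM. TAS2_521_16 had 14397, 7510 and 11578 CPM in total RNA control and 205663, 177250 and 159042 CPM in AGO1-IP control. In HS it had 10382, 7666 and 7220 CPM in total RNA and 136547, 174504 and 158300 CPM in AGO1-IP, and in recovery 15562, 8506 and 9127 CPM in total RNA and 93385, 185406 and 118107 CPM in AGO1-IP. All 9 AGO1-IP libraries lay above all 9 total RNA libraries. The log2 fold change was 5.16 ± 0.45 (SE, n = 3 against 3) in control (edgeR adjusted p = 8.31e-09), 5.16 ± 0.45 in HS (2.83e-09) and 4.49 ± 0.44 in recovery (2.89e-08).

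TAS2_585_16 behaved in the same way, from 4177, 3447 and 2918 CPM in total RNA control to 31728, 46165 and 50480 CPM in AGO1-IP control. Its log2 fold change was 4.72 ± 0.57 in control, 5.59 ± 0.60 in HS and 4.42 ± 0.56 in recovery, and its lowest AGO1-IP level was 9923 CPM in recovery replicate 1, still above every total RNA library. TAS2_650_16 had 27815, 27100 and 26927 CPM in total RNA control and 67674, 65603 and 65216 CPM in AGO1-IP control, a log2 fold change of 2.40 ± 0.38 (edgeR adjusted p = 2.09e-05). TAS2_649_16 (2.93 ± 0.42 in control), TAS2_628_16 (1.99 ± 0.38) and the forward TAS2_586_0 (2.75 ± 0.37) and TAS2_587_0 (2.08 ± 0.38) were also higher in AGO1-IP in all 3 conditions. The call of TAS2_587_0 in HS (1.58 ± 0.37) was lost with no scaling factor (0.60, edgeR adjusted p = 0.143) and with a mean of at least 50 counts (0.64, 0.0948).

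Several forward siRNAs showed no such difference. TAS2_418_0 had 33532, 34691 and 32439 CPM in total RNA control and 16541, 25555 and 34610 CPM in AGO1-IP control. Its log2 fold change was 0.69 ± 0.38 in control (edgeR adjusted p = 0.123), 1.30 ± 0.39 in HS (0.00635) and 0.60 ± 0.38 in recovery (0.189). In control and recovery its sign turned when no scaling factor was used (−0.41 and −0.21). The signs of TAS2_460_0, TAS2_565_0 and TAS2_566_0 also turned with scaling in all 3 conditions, so no direction is given for them. The call of TAS2_418_0 in HS was lost with no factor (0.39, edgeR adjusted p = 0.358), with a mean of at least 50 counts (0.42, 0.320), with miRNA-table factors (1.01, 0.125) and without total RNA HS replicate 1 (1.04, edgeR adjusted p = 0.0515), and in recovery it was gained without AGO1-IP recovery replicate 1 (0.97, edgeR adjusted p = 0.0471).

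Other siRNAs were far lower in AGO1-IP. TAS2_481_0, on the register in cycle 4, had 12927, 9714 and 9385 CPM in total RNA control and 527, 535 and 517 CPM in AGO1-IP control, with a log2 fold change of −3.20 ± 0.41 (edgeR adjusted p = 1.32e-06), −2.51 ± 0.40 in HS and −3.31 ± 0.42 in recovery. TAS2_564_16 had 5274, 6125 and 3191 CPM in total RNA control and 23.5, 59.0 and 13.3 CPM in AGO1-IP control (log2 fold change −6.02 ± 0.58, edgeR adjusted p = 2.02e-08). TAS2_502_0 had 1727, 2012 and 2065 CPM in total RNA control and 13.04, 27.5 and 6.63 CPM in AGO1-IP control (−5.70 ± 0.61, 7.76e-08). In each of these 3 positions the lowest total RNA library lay above the highest AGO1-IP library, and the 5′ base was A or G.

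**Figure D4:**
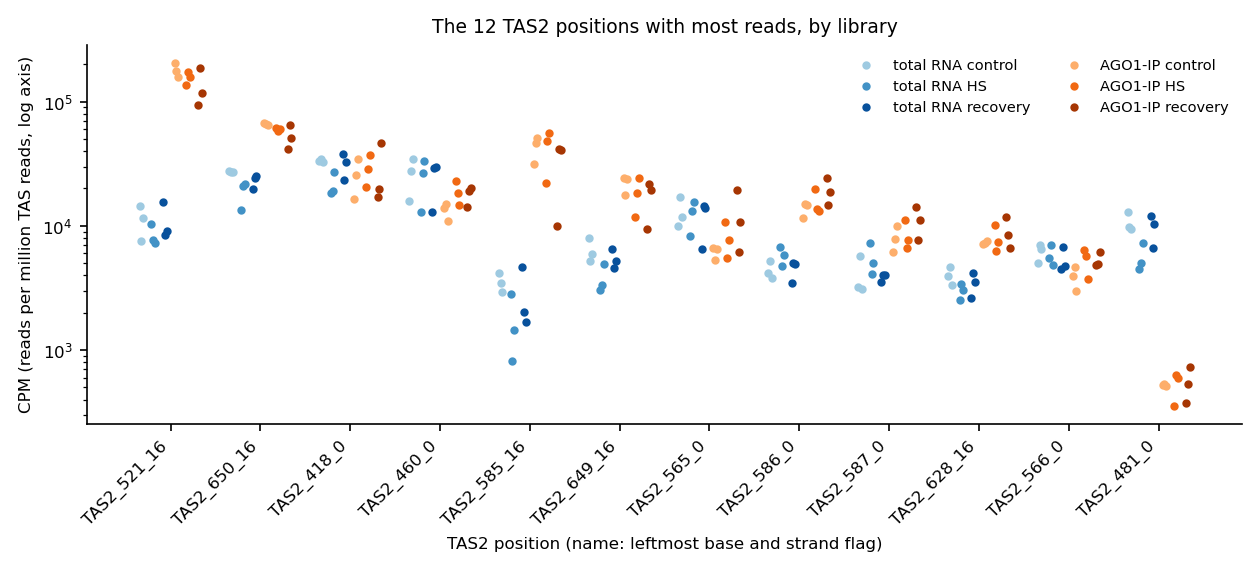
CPM (reads per 1000000 TAS reads, log axis) of the 12 TAS2 positions with most reads, each point 1 library, in the 3 conditions of total RNA (blue) and AGO1-IP (orange). TAS2_521_16 and TAS2_585_16 lie higher in all AGO1-IP libraries, TAS2_481_0 lower, and TAS2_418_0 overlaps.

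Of the 188 TAS2 positions that passed the filter on low counts, 65 were higher and 43 lower in AGO1-IP than in total RNA in control (edgeR adjusted p under 0.05), beside 27.6% and 29.7% of all 852 TAS positions. In HS 64 were higher and 51 lower, with 28.2% and 33.3% over all positions, and in recovery 57 were higher and 45 lower, with 23.9% and 28.8%. The median log2 fold change was 0.29, −0.10 and 0.20 at TAS2 positions and −0.14, −0.38 and −0.21 over all positions. Of the 188 positions, 46 were higher and 31 lower in all 3 conditions, 46 were called in none, and 1 was higher in 1 condition and lower in another. This overlap was not counted over all 852 positions, so it cannot be called a trait of TAS2. Only TAS2 positions with enough reads could pass the filter, so these counts do not speak for the rest.

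The split of these calls depended on scaling. With TMM, 60.2%, 55.7% and 55.9% of the calls in control, HS and recovery were higher in AGO1-IP. With library size alone and no factor, which moves the median of all positions to −1.27, −1.35 and −0.9995, 27.3%, 27.2% and 32.7% were higher. With the library sizes and factors of the miRNA table, 47.1%, 46.5% and 37.1% were higher. TAS2_521_16, TAS2_585_16, TAS2_586_0, TAS2_628_16, TAS2_649_16 and TAS2_650_16 stayed higher and TAS2_481_0 lower, past the threshold, under every alternative tried.

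The calls were unevenly divided over the 5′ bases, here as counts with no test of base against call and with TAS2_521_16 counted as adenosine. Some positions passed the filter through reads in 1 RNA type, which fixed their direction in advance. Among them were TAS2_559_0 (uridine, 0 reads in total RNA HS and 74 in AGO1-IP HS) and TAS2_903_0 (cytidine, 34 and 0). The split by base was not counted over all 852 TAS positions, so it is not given as a trait of TAS2. Of 73 tested positions with a 5′ uridine, 52 were higher and 0 lower in AGO1-IP in control, 48 and 1 in HS and 41 and 0 in recovery. Of 115 positions with another 5′ base, 13 were higher and 43 lower in control, 16 and 50 in HS and 16 and 45 in recovery. Of 62 positions with a 5′ adenosine 28, 33 and 28 were lower in control, HS and recovery, and of 25 with a 5′ guanosine 10, 11 and 13. Of the 46 positions higher in all 3 conditions 37 began with U, 4 with A, 3 with C and 2 with G, and of the 31 lower in all 3 none began with U, 21 with A, 8 with G and 2 with C. With no scaling factor, 23 of the 73 uridine positions were higher and 5 lower in control, against 7 and 75 of the 115 others.

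**Figure D5:**
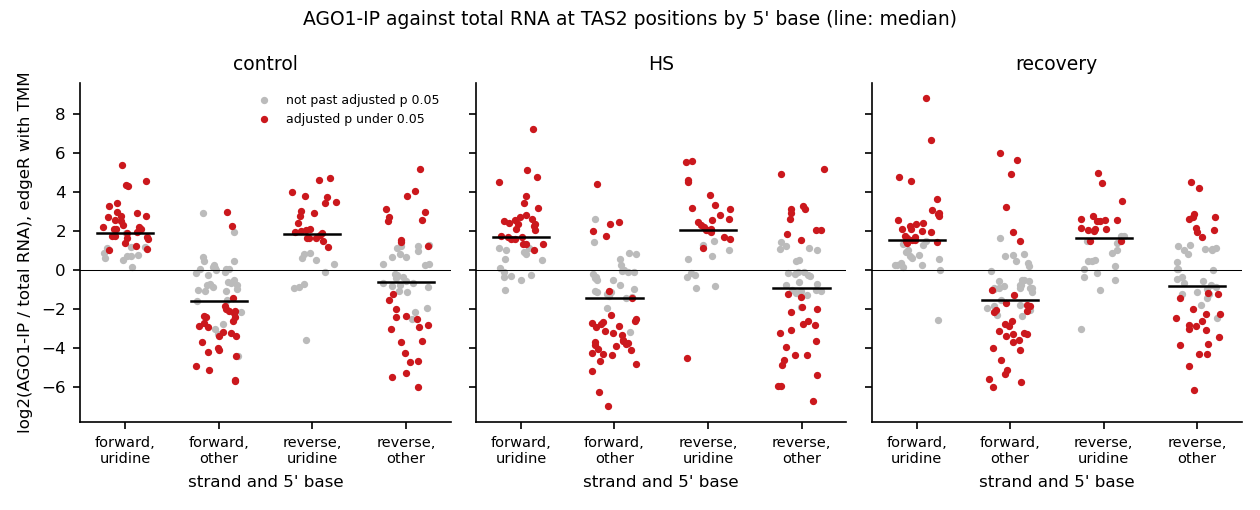
Log2 of AGO1-IP over total RNA (edgeR with TMM) at the 188 tested TAS2 positions in control, HS and recovery, by strand and 5′ base, with medians as lines. Red points passed an adjusted p of 0.05. For forward positions in control the median was 1.87 with a 5′ uridine and −1.60 with another base.

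In the shares of reads, the forward strand is the one on which the 5′ base does not depend on read length. A 5′ uridine was found in 58.2% ± 3.83 (SD, n = 9; 52.0 to 62.8%) of forward TAS2 reads in total RNA and in 82.3% ± 3.98 (73.0 to 85.4%) in AGO1-IP. The difference was 24.1 percentage points (exact permutation test, p = 0.00025, the smallest possible). A 5′ adenosine fell in share from 13.6% to 2.79% and a 5′ guanosine from 8.78% to 2.31% of forward reads, as means of 9 libraries and without a test. Over both strands the uridine share was 54.4% ± 5.61 in total RNA and 56.5% ± 3.59 in AGO1-IP and did not pass the test (exact permutation test, p = 0.383). This value turned on TAS2_521_16, which counts as adenosine at 21 nt. Without it the difference was 31.5 percentage points, and with reverse reads taken as 22 nt long it was 28.3 (exact permutation test, p = 0.00025 for both). For whole AGO1-IP libraries the study names peaks at 21 nt and at the next shorter length, and none at 22 nt. At that shorter length the 5′ base of TAS2_521_16 is U, as it is at 22 nt. The uridine share at the shorter length was not computed. Among register positions alone the uridine difference was −26.5 percentage points (exact permutation test, p = 0.00025), and among positions with a unique 21-mer −1.65 (p = 0.496). Both sets hold TAS2_521_16, with 36.0% of TAS2 reads in AGO1-IP, counted as adenosine at 21 nt.

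Over all reverse reads a 5′ uridine was found in 48.8% ± 7.84 (SD, n = 9) in total RNA and 46.9% ± 2.99 in AGO1-IP, and a 5′ adenosine in 36.7% ± 7.73 and 51.1% ± 3.01. Without TAS2_521_16, a 5′ uridine was found in 54.9% ± 8.52 (SD, n = 9) of reverse reads in total RNA and 93.3% ± 1.92 in AGO1-IP. TAS2_520_16, which starts 1 nt inside TAS2_521_16 and has a 5′ uridine at 21 nt, was also higher in AGO1-IP, with 4, 20 and 28 reads in total RNA control and 846, 624 and 263 reads in AGO1-IP control (log2 fold change 4.60 ± 0.57, edgeR adjusted p = 7.34e-07).

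Several positions with the largest fitted changes rested on few reads in one RNA type. TAS2_549_0 had no read in total RNA recovery and was read in AGO1-IP recovery, which is at least 25.1-fold higher when 3 reads over the total RNA group are taken as the floor. TAS2_559_0 (0 against 74 reads in HS) was at least 7.13-fold higher and TAS2_525_0 (0 against 41 reads in recovery) at least 5.96-fold higher in AGO1-IP. In the other direction, TAS2_537_16 had 27 reads in total RNA HS and 0 in AGO1-IP HS (at least 31.1-fold lower), and TAS2_903_0 had 34 and 0 reads (at least 39.2-fold lower). These bounds cover counting error only. The positions passed the filter mainly through reads in 1 RNA type and were named for their large change. Their direction was thus fixed in advance and is not a result. TAS2_464_0 was called higher in AGO1-IP recovery (log2 fold change 5.62, edgeR adjusted p = 0.0157) with 246 reads in replicate 1 beside 4 and 3 in the others, and was at 0.42 without that library (edgeR adjusted p = 0.801).

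HS and recovery were then compared with control to ask whether a short heat treatment changed TAS2 siRNAs or their loading. No TAS2 position passed the edgeR test between group means, fitted without a replicate block, in any of these comparisons. Of 146 positions tested in total RNA, 0 were called for HS against control (13 had an unadjusted p under 0.05), 0 for recovery against control (1) and 0 for recovery against HS (3), and DESeq2 also called 0. Of all 646 positions 0% were called in each. With a replicate block, 9 TAS2 positions were called for total RNA HS against control. Among the 9 were TAS2_481_0, TAS2_486_0, TAS2_545_0, TAS2_574_0 and TAS2_585_16, described next. Same-numbered libraries of these groups did not all deviate together (correlations 0.421, −0.088 and 0.516). Of 163 positions tested in AGO1-IP, 0 were called in the 3 comparisons (2, 8 and 3 at an unadjusted p under 0.05; DESeq2 also 0), beside 0.134% of all 749 positions for HS against control and 0% for the other 2.

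The positions with most reads give the size of what was seen. TAS2_418_0 had 33532, 34691 and 32439 CPM in total RNA control and 18318, 19196 and 27265 CPM in total RNA HS. These groups did not overlap, but the log2 fold change of −0.67 ± 0.30 did not pass the test (edgeR adjusted p = 0.501). TAS2_481_0 had 12927, 9714 and 9385 CPM in control and 4535, 5043 and 7210 CPM in HS (−0.96 ± 0.32, edgeR adjusted p = 0.489). TAS2_585_16 had −1.14 ± 0.45 (edgeR adjusted p = 0.489) and TAS2_521_16 −0.46 ± 0.32 (edgeR adjusted p = 0.654). In AGO1-IP the changes of TAS2_521_16 were −0.16 ± 0.31 in HS and −0.56 ± 0.31 in recovery (edgeR adjusted p = 0.996 and 0.978), and those of the 12 main positions ranged from −0.23 to 0.54 in HS and from −0.59 to 0.81 in recovery.

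The 3 positions with the smallest p in total RNA for HS against control were TAS2_574_0 (log2 fold change 1.29 ± 0.36), TAS2_545_0 (−1.33 ± 0.38) and TAS2_486_0 (−2.25 ± 0.68), with an edgeR adjusted p of 0.489 each. TAS2_545_0 had 2240, 2133 and 2978 CPM in control and 716, 870 and 1381 CPM in HS. In AGO1-IP the smallest p values were those of TAS2_751_0 (2.28 ± 0.96), TAS2_523_0 (−1.37 ± 0.60) and TAS2_645_0 (1.13 ± 0.56) in HS, all with an edgeR adjusted p of 0.996.

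The loading change is the fold change of a position in AGO1-IP set against its own fold change in total RNA. Of 188 TAS2 positions 0 were called for HS and 0 for recovery (11 and 10 at an unadjusted p under 0.05, DESeq2 also 0), beside 0% of all 852 positions for both. For TAS2_521_16 the change was −0.00 ± 0.54 in HS and −0.67 ± 0.54 in recovery on the log2 scale (edgeR adjusted p = 1.00 for both).

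The composition of TAS2 reads was compared between conditions with 30 exact permutation tests of 3 against 3 libraries, which cannot go below p = 0.10. This smallest p was reached in 3 of them, with an adjusted p of 0.923 in each. Reverse reads in AGO1-IP were 77.2% ± 2.84 (SD, n = 3) in control and 72.7% ± 2.84 in HS, a difference of −4.53 percentage points. The share of TAS2 in TAS reads of total RNA was 23.5% ± 0.19 in control, 20.97% ± 0.28 in HS and 22.5% ± 1.12 in recovery, differences of −2.54 for HS against control and 1.53 for recovery against HS. The 3 libraries of each group did not overlap with those of the other in these comparisons. In AGO1-IP recovery the reverse share was 66.5% ± 9.81, with 77.6% in replicate 2 and 58.8% in replicate 1.

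Summed over all positions, TAS2 was compared with the other TAS loci and with miRNAs of the pathway in the miRNA table joined by the 7 TAS loci. No treatment comparison of the TAS2 sum passed the test. In total RNA the log2 fold change was 0.14 ± 0.33 for HS and 0.09 ± 0.33 for recovery against control and −0.05 ± 0.33 for recovery against HS, and in AGO1-IP it was 0.07 ± 0.38, −0.43 ± 0.38 and −0.51 ± 0.38 (edgeR adjusted p from 0.836 to 0.998). Of all rows tested, 0% were called in each total RNA comparison, and 1.8%, 0.45% and 0.45% in AGO1-IP. The loading change was −0.21 ± 0.56 in HS and −0.66 ± 0.56 in recovery (edgeR adjusted p = 0.940 and 0.994, 0.364% and 0% of rows called).

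Against total RNA, TAS2 was higher in AGO1-IP by a log2 fold change of 1.88 ± 0.41 in control (edgeR adjusted p = 4.04e-04), 1.66 ± 0.40 in HS (0.00109) and 1.21 ± 0.40 in recovery (0.0120). In these comparisons 65.5%, 67.3% and 63.3% of all rows were called. These values are relative to the typical miRNA under TMM and did not hold without a factor, where TAS2 was at 0.28, 0.20 and −0.19 (edgeR adjusted p = 0.459, 0.552 and 0.601). The call in recovery was also lost with RLE factors (0.59, edgeR adjusted p = 0.145), with DESeq2 (0.59, adjusted p = 0.140), with a mean of at least 50 counts (0.68, edgeR adjusted p = 0.107) and without AGO1-IP recovery replicate 2 (0.78, edgeR adjusted p = 0.104). Of the TAS1 loci, which share the miR173 trigger, TAS1a (0.22 ± 0.39 in control) and TAS1c (0.44 ± 0.36) did not pass the test in any condition, and TAS1b was at −0.22 ± 0.35 in control and lower in HS (−0.90 ± 0.35, edgeR adjusted p = 0.0290) and recovery (−0.91 ± 0.35, 0.0292). TAS3a (1.29 ± 0.44, edgeR adjusted p = 0.0136) and TAS4 (1.30 ± 0.43, 0.0117) were higher and TAS3b lower (−1.51 ± 0.53, 0.0157) in control. In all, 3 of 7 TAS loci were higher and 1 lower in control, 2 and 2 in HS, and 1 and 2 in recovery.

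The list of pathway miRNAs held the triggers miR173, miR390 and miR828, the PPR-directed miR161.1, miR161.2 and miR400, and miR168a-5p, miR162a-3p and miR403-3p, which target AGO1, DCL1 and AGO2. Of its 11 members 10 passed the filter, miR828 being the exception. None of the 10 was called in any treatment comparison. Against total RNA 6 were higher and 0 lower in control, 6 and 2 in HS and 6 and 0 in recovery, beside 65.5%, 67.3% and 63.3% of all rows called in either direction, so the share called among the 10 was near that of all rows. The trigger miR173-5p was higher in AGO1-IP by 2.94 ± 0.56 in control (edgeR adjusted p = 1.22e-04), 3.93 ± 0.58 in HS and 2.70 ± 0.55 in recovery. It had 5117, 3690 and 5091 reads per 1000000 miRNA reads in total RNA control and 2811, 3109 and 2975 in total RNA HS, and these groups did not overlap, but the log2 fold change of −0.67 ± 0.25 did not pass the test (edgeR adjusted p = 0.326). TAS2 sums in the same libraries were 22130, 22095 and 31239 reads per 1000000 miRNA reads in control and 21881, 35229 and 28134 in HS.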

How the data were processed

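Small RNA reads of 18 libraries were trimmed by the authors with Cutadapt 2.9, kept at 18 to 34 nt, and mapped with Bowtie2 (version not given in the sources used here) to TAIR10. The authors deposited raw read counts per mature miRNA and per TAS locus, position and strand flag, without UMIs. How reads with several map positions were counted is not stated. The study describes the size distribution of whole libraries, but the deposited counts carry no length for the reads at a position. Depth was 26411 to 383351 TAS reads per library. Intervals and floors (3 reads over a group) are scaled by TAS reads without TMM factors and cover counting error only. No column was left unused for lack of a sample.

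Positions were placed on the RefSeq TAS2 transcript and 21-mers compared with the TAIR10.1 genome. Counts were tested with the edgeR 4.0.16 quasi-likelihood test (R 4.3.3, TMM, filterByExpr, Benjamini-Hochberg over all rows, threshold 0.05), with the 9 libraries of 1 RNA type per fit for treatments and all 18 for AGO1-IP against total RNA and for loading. The scripts were tested on simulated data. Shares were compared with exact two-sided permutation tests (scipy 1.17.1). Alternatives were RLE factors, no factor, factors of the miRNA table, DESeq2 1.42.0, other filters, unique 21-mers, leaving out the position with most reads or single libraries, other register and strand choices, and a replicate block. The 22-nt reading of reverse positions was added after seeing the data.

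Named positions are the 12 with the highest mean CPM over groups, the strongest of each cycle and strand, up to 5 called in each direction with the largest change per comparison or, where none was called, the 3 with the smallest p. TAS2_520_16 and TAS2_564_16 fall under this rule. The positions and gene lists were chosen with earlier results of these data known. Same-numbered libraries deviated together, with every correlation over 0.1, for recovery against control (0.498, 0.159 and 0.482) and recovery against HS (0.479, 0.194 and 0.600) in total RNA and for recovery against HS in AGO1-IP (0.487, 0.311 and 0.217). Replicates are described as biological, and p-values measure the spread between them.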

Additional observations from a re-analysis of the deposited data

How the results depend on the processing

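Across named positions, 1110 results at other settings kept their direction and side of the threshold, 18 lost and 8 gained a call, and 37 turned sign; the cause was not tested. With a mean of at least 50 counts, 55 positions were tested and 36, 35 and 38 were called in AGO1-IP against total RNA in control, HS and recovery. Leaving out single libraries gave 89 to 99, 99 to 111 and 77 to 102. With no filter 1 position was called for AGO1-IP recovery against HS. The replicate block called 9 positions for total RNA HS against control, where same-numbered libraries did not all deviate together (correlations 0.421, −0.088 and 0.516). Among them were TAS2_545_0 (log2 fold change −1.36), TAS2_585_16 (−1.25), TAS2_481_0 (−0.97), TAS2_574_0 (1.25) and TAS2_486_0 (−2.24), with edgeR adjusted p from 0.00335 to 0.0451. The block called 105, 113 and 97 positions in AGO1-IP against total RNA. It changed no other call of the counts, TAS2 sums or shares.

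The TAS2 sum in AGO1-IP against total RNA was 0.28, 0.20 and −0.19 (log2) with no factor, which ended the call in all 3 conditions. In recovery the call was also lost at 0.59 with RLE or DESeq2 factors and 0.68 with at least 50 counts, and the value was 0.78 to 1.53 with single libraries left out. Sums turned sign with no filter for total RNA recovery against HS (0.036), with RLE or DESeq2 for loading in HS (0.18), and with single libraries left out for HS against control in AGO1-IP (−0.026 to 0.38) and total RNA (−0.078 to 0.35), recovery against control (−0.18 to 0.36) and against HS (−0.32 to 0.22) in total RNA, and loading in HS (−0.58 to 0.35).

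Without TAS2_521_16 the AGO1-IP minus total RNA difference was −19.4 percentage points for the register share, 31.5 for the 5′ uridine share and −8440 for reads per 1000000 miRNA reads (exact permutation test, p = 0.00025, 0.00025 and 0.00575). With unique 21-mers the last 2 were −1.65 and −1632. The uridine difference was −26.5 in the register (exact permutation test, p = 0.00025), 24.1 on the forward strand and 28.3 at 22 nt. The register set and the unique 21-mers both hold TAS2_521_16, counted as adenosine. The difference per 1000000 miRNA reads was −706 to 1916 with single libraries left out.

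For AGO1-IP against total RNA in control, the log2 fold change with no factor was −0.41 at TAS2_418_0, −0.98 at TAS2_460_0, −1.09 at TAS2_565_0 and −0.69 at TAS2_566_0. With at least 50 counts it was −0.15, −0.71, −0.82 and −0.41 in the same order. TAS2_460_0 and TAS2_565_0 were at −0.11 and −0.22 with RLE or DESeq2 and −0.25 and −0.33 with miRNA factors, and TAS2_565_0 at −0.020 with no filter. In HS, no factor gave −0.40, −0.66 and −0.17 and at least 50 counts −0.39, −0.65 and −0.13 at TAS2_460_0, TAS2_565_0 and TAS2_566_0, and miRNA factors −0.11 at TAS2_565_0. In recovery, TAS2_418_0 was at −0.21 with no factor and −0.11 with at least 50 counts, TAS2_460_0 at −0.45, −0.36 and, with miRNA factors, −0.26, TAS2_565_0 at −0.10 with miRNA factors and TAS2_566_0 at −0.022 with no factor. With single libraries left out, TAS2_460_0 was at −0.36 to 0.43 in control and −0.064 to 0.58 in recovery, TAS2_565_0 at −0.37 to 0.13 in control and −0.13 to 0.43 in HS, and the loading change of TAS2_592_0 in recovery at −0.34 to 5.71.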

Other observations

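TAS2_460_0, a forward siRNA on the register in cycle 3, was lowest in replicate 1 of all 3 total RNA groups. It had 15821, 12858 and 12911 CPM in replicate 1 of control, HS and recovery, and 26779 to 34256 CPM in the other 6 total RNA libraries. These 3 libraries were also those with the fewest TAS2 reads of their groups (10107, 7044 and 6237). The part of depth in this difference was not tested. The same libraries had the highest reverse share of their group, with 46.3%, 43.8% and 43.7%.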
